A study of Mus musculus with 6 samples.

Results

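The replication-dependent histone genes encode the linker histone H1 and the core histones H2A, H2B, H3 and H4 that package newly replicated DNA. They were taken here as every gene symbol that begins with Hist1h, Hist2h, Hist3h or Hist4h in the count tables of all 6 libraries, which gave 70 genes of the 53640 symbols that the tables share. RNA was sequenced from the tissue that the labels call PFC (prefrontal cortex) of 6-month-old mice, with 2 libraries for each of 3 groups that the labels call biological duplicates. The treated tau group was PS19(P301S) mice that received WDR5-0103, a ligand of the chromatin protein WDR5, at a dose the labels do not state. The tau group was PS19(P301S) mice given vehicle. The control group was C57BL/6 x C3H mice given vehicle. In PS19 mice the mouse prion promoter drives human tau that carries the P301S mutation, so the treated tau and tau groups share the transgene, and WDR5-0103 was not given to mice without it.

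Most messenger RNAs end in a poly(A) tail, but transcripts of these histone genes typically end just after a short stem-loop that binds the protein SLBP, and they are made mainly in S phase. Some of the genes are also known to yield polyadenylated transcripts in cells that have stopped dividing, as neurons have. The libraries were made from total RNA depleted of ribosomal RNA, so both kinds of transcript could be counted. The genes are small, usually of a single exon, and lie in clusters: 56 were annotated on chromosome 13 (Hist1), 10 on chromosome 3 (Hist2), 3 on chromosome 11 (Hist3) and 1 on chromosome 6 (Hist4, Hist4h4). By class, 6 were H1, 20 were H2A, 19 were H2B, 12 were H3 and 13 were H4. GENCODE M21 on the GRCm38 assembly lists 67 of them as protein coding, while Hist1h2al and Hist3h2bb-ps are processed pseudogenes and Hist1h2aj is an unprocessed pseudogene.

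The 3′ stem-loop was searched on the sense strand over the whole of each GENCODE transcript. The pattern was a run of 16 bases that opens with GG, closes with CC and holds CTTTT and AG in between, 1 free base apart and with 2 free bases on either side. The stem-loop was found in 44 of the 70 genes: 4 H1, 11 H2A, 10 H2B, 8 H3 and 11 H4 genes. Of its 6 spellings, 1 occurred in 26 genes of the H1, H2A, H2B and H3 classes and in no H4 gene, whereas H4 genes had 3 other spellings. One gene of each spelling is shown, with the 16 bases of the stem-loop in capitals and 5 bases on either side in lower case. Transcripts of these genes that lack poly(A) typically end just after these letters, but longer transcripts hold the letters too.
Hist1h1c: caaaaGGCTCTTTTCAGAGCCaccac
Hist1h4c: caaaaGGCCCTTTTCAGGGCCaccca
Hist1h3e: aaaacGGCTCTTTTAAGAGCCacctc
Hist1h4i: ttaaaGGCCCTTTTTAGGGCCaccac
Hist1h4j: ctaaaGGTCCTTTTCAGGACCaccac
Hist2h2ac: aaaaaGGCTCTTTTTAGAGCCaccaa
The spelling of Hist1h1c is the one in 26 genes, that of Hist1h4c is in 7 H4 genes and that of Hist1h3e is in 6 genes of the H1, H2B and H3 classes. The spellings of Hist1h4i and Hist1h4j are in 2 H4 genes each, and that of Hist2h2ac is in that gene alone. The stem-loop began 21 to 58 bases after the stop codon (median 31), and the annotated transcript ran a further 3 to 4884 bases past it (median 112.5). A gene without these letters may only have an annotated end that stops short of them: of the 67 coding genes, 23 had none in their model.

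Many coding sequences within a core histone class are near-copies of each other, and this bears on most counts in this family. Among pairs of equal length, the median identity of the coding bases was 96.4% for H2A, 97.1% for H2B, 97.6% for H3 and 93.9% for H4, and the least alike pairs were at 77.6%, 82.9%, 93.7% and 85.3%. The first 60 coding bases of 5 H4 genes show the pattern, with capitals at the bases that differ from Hist1h4d.
Hist1h4d: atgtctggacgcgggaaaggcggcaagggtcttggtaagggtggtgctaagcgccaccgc
Hist1h4h: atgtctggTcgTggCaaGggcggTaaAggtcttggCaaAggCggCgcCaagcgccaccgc
Hist1h4c: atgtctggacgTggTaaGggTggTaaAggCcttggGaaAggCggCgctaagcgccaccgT
Hist1h4m: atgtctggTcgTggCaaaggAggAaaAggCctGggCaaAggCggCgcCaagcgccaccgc
Hist1h4n: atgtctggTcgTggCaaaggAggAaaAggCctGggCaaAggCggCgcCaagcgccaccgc
Hist1h4h was identical to Hist1h4d at 49 of these 60 bases and Hist1h4c at 48, while Hist1h4m and Hist1h4n were identical to each other over their whole coding length of 312 bases. Over the annotated exons, 63 of the 70 genes had more than 5% of their 50-base words in another gene, and 34 had more than 50%. The 7 genes below that limit were Hist1h1a, Hist1h1b, Hist1h1d, Hist1h1t, Hist1h2aa, Hist2h2be and Hist2h4. How reads with several alignments were counted is not given in the sources used here, so the value of a single gene among the 63 is uncertain. Sums and shares over a class carry the same limit, since such reads may have been kept or dropped. The deposited counts are whole numbers. Hist2h2aa2 and Hist2h3c1, with 100% of their 50-base words in another gene, had 0 counts in every library. Hist1h3h, at 93.9%, had 336 counts in total, and the counting rule was not tested.

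Promoter windows of 300 bases, from 250 bases before to 50 after the start, were taken from RefSeq (GRCm38.p6) and matched 61 of the 70 genes by symbol or synonym. The TATA box, as the letters TATAAA, was searched on both strands. The CCAAT box and the octamer, as the letters ATTTGCAT, were searched in the same way, and no hits of different motifs overlapped. CCAAT was present in every window of the 6 H1, 17 H2A, 16 H2B and 10 H3 genes and in 3 of the 12 H4 windows, against 37.4% of all 32851 RefSeq windows. The octamer occurred in 7 H2A windows (41.2%) and 6 H2B windows (37.5%), in no H1, H3 or H4 window, and in 1.7% of all windows. TATAAA occurred in 57.4% of the histone windows and 13.6% of all windows. H2A and H2B genes often lie head to head, and 18 of the histone windows overlapped another histone window, so the windows are not independent. A match describes the letters only. The window of Hist1h4c, the H4 gene with the smallest p between treated tau and tau, lies on the minus strand at chr13:23698409-23698708. The window of Hist1h4d, the most abundant gene, lies on the plus strand at chr13:23581318-23581617. The window of Hist1h2ac, which holds all 3 motifs and faces Hist1h2bc, lies on the minus strand at chr13:23683910-23684209. Motifs are in capitals.
Hist1h4c: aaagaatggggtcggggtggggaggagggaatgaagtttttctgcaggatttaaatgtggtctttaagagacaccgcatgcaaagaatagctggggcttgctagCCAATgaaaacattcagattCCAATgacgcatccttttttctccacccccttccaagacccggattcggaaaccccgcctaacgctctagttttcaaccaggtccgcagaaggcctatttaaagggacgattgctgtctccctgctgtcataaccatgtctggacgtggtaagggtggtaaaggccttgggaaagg
Hist1h4d: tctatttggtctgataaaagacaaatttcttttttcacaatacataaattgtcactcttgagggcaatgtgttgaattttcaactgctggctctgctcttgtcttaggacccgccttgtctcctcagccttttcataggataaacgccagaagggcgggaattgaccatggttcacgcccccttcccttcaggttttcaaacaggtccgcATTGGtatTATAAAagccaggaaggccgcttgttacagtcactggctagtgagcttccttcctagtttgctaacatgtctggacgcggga
Hist1h2ac: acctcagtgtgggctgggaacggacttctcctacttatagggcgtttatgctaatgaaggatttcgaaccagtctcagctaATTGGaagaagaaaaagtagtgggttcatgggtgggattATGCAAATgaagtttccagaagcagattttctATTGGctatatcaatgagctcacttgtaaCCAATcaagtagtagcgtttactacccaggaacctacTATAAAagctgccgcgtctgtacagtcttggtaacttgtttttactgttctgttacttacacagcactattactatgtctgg
The Hist1h4c window has CCAAT and no TATAAA, the Hist1h4d window has CCAAT (read on the other strand) and TATAAA, and the Hist1h2ac window has CCAAT on both strands, TATAAA and the octamer.

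The library with the fewest counts was tau 2, with 17690811, and that with the most was treated tau 1, with 34774643. Levels are given as CPM, the counts relative to library size after scaling by TMM, which aligns the libraries on most genes. Excitatory cortical markers summed to between 2294 and 2743 CPM in every library, and no marker list was at 0. Prnp, the gene whose promoter drives the transgene, had 1876 and 1594 CPM in treated tau, 1684 and 1472 in tau, and 1654 and 876 in control, so the library labelled control 1 went against its label, within the range of the 4 transgenic libraries. It also had 216 CPM of olfactory bulb neuron markers, against 30.4 to 33.0 in the other 5 libraries, and tau 2 had 5673 CPM of oligodendrocyte markers, against 1494 to 3028. Striatal markers summed to 253 CPM in tau 2, against 98.0 to 143 in the other libraries, and choroid plexus markers to 13.5 CPM in control 1, against 4.08 to 7.04. Xist and Ddx3y showed the female pattern in tau 1, tau 2 and control 2 and the male pattern in both treated tau libraries and the library labelled control 1. Sex and treatment therefore cannot be told apart between treated tau and tau, and sex was also unbalanced in both comparisons with control. The treated tau tables also hold 494 symbols that the tau and control tables lack, and lack 789 that those hold, with no histone cluster symbol among either. Whatever set these tables apart in counting cannot be told apart from treatment. The part of these differences in the results was not tested. Libraries are numbered by their titles, and 4 of the 6 carry another number in the header of their count table.

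Histone cluster genes held a small share of the counts in all 6 libraries, between 385 and 471 CPM. All 70 genes together came to 425 and 449 CPM in treated tau, 471 and 461 CPM in tau, and 456 and 385 CPM in control. The group means were 437 ± 17.5 CPM in treated tau, 466 ± 7.36 in tau and 420.4 ± 50.04 in control (SD, n = 2 each). Both tau libraries were above both treated tau libraries and both control libraries, while the treated tau libraries lay within the range of the control libraries. As log2 ratios of the group means, which are descriptions with no test, treated tau was at -0.09 against tau and 0.06 against control, and tau was at 0.15 against control. The values against control moved with the control libraries: without the library labelled control 1, treated tau was at 0.18 and tau at 0.27 against control, and without control 2 they were at -0.06 and 0.03. With library sizes that were not TMM-scaled, treated tau was at -0.01 against control. In bulk tissue, fewer cells of a type and less RNA per cell cannot be told apart.

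H4 genes, which encode the smallest core histone, held most of this signal: 224 ± 13.3 CPM in treated tau, 245 ± 6.33 in tau and 213 ± 24.9 in control (SD, n = 2 each), or 51.5% of the summed level over the 6 libraries. In single libraries the H4 sum was 214 and 233 CPM in treated tau, 249 and 240 in tau, and 230.3 and 195 in control. The H1 linker histones, which bind DNA as it enters and leaves the nucleosome, summed to 91.3 ± 8.75 CPM in treated tau, 92.8 ± 5.67 in tau and 88.5 ± 10.2 in control, or 20.6% of the total. H2B summed to 68.0 ± 2.65 CPM in treated tau, 72.8 ± 0.645 in tau and 64.5 ± 8.46 in control (15.5%). H3 summed to 32.7 ± 5.89 CPM in treated tau, 33.1 ± 1.57 in tau and 31.6 ± 2.52 in control (7.36%). H2A summed to 21.5 ± 4.40 CPM in treated tau, 22.1 ± 2.42 in tau and 23.2 ± 3.95 in control (5.05%). Every H2A gene overlaps another annotated gene on the opposite strand, and whether this bears on the H2A sum was not tested. The H4 and H2B sums were above both other groups in both tau libraries, and the H1, H2A and H3 sums of the 3 groups overlapped.

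**Figure D1:**
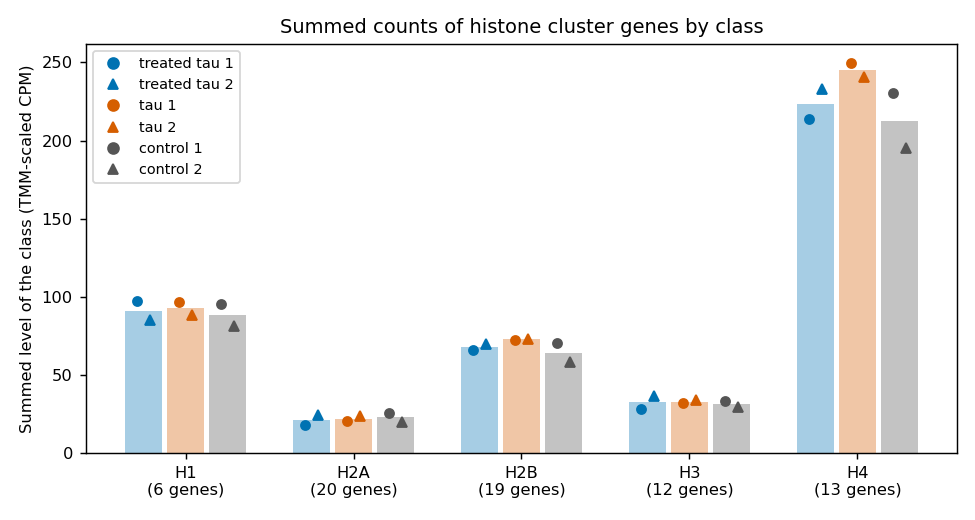
Summed level of each histone class in TMM-scaled CPM (vertical axis) for treated tau, tau and control; bars are group means and points are the 2 libraries of each group. H4 is highest in every library, between 195 and 249 CPM, and H2A lowest, between 18.4 and 26.0 CPM.

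A few genes carried most of the total. Hist1h4d alone held 15.2% of the summed level, the 5 most abundant genes 45.3% and the top 20 genes 85.3%. 14 of the 70 genes averaged at least 10 CPM and 31 averaged under 1 CPM. The 8 genes with the highest mean CPM are described first, with their values in every library.

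Hist1h4d (ENSMUSG00000061482.7, chr13:23581598-23582735, plus strand, 1 exon) had 69.2 and 68.3 CPM in treated tau, 74.9 and 67.9 CPM in tau, and 67.5 and 54.5 CPM in control. Both treated tau libraries were above both control libraries, with a log2 fold change of 0.17 ± 0.11 (SE), and overlapped with tau. Hist1h4h, another H4 gene, had 33.8 and 39.0 CPM in treated tau, 38.8 and 39.7 CPM in tau, and 38.5 and 32.7 CPM in control. Its treated tau libraries overlapped with those of both other groups. Hist1h4i had 13.8 and 18.9 CPM in treated tau, 12.9 and 19.1 CPM in tau, and 17.2 and 14.6 CPM in control, so the libraries of a group differed more than the group means did.

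Hist1h4c (ENSMUSG00000060678.5, chr13:23697635-23698454, minus strand, 1 exon) had 26.2 and 26.6 CPM in treated tau, 43.4 and 32.6 CPM in tau, and 30.2 and 26.3 CPM in control. The tau libraries were the 2 highest and differed from each other by more than those of either other group. Hist1h4f had 13.8 and 15.4 CPM in treated tau, 19.5 and 16.6 CPM in tau, and 14.4 and 14.6 CPM in control, again with tau above both other groups in both libraries. The tests of these 2 genes are given with the comparisons.

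The linker histone gene Hist1h1e had 40.0 and 33.0 CPM in treated tau, 35.7 and 39.9 CPM in tau, and 37.9 and 36.4 CPM in control, with all 3 groups overlapping. Its annotated exon overlaps a longer model of Hist1h2be on the same strand, so reads there could belong to either. Hist1h1c, a second linker histone, had 32.0 and 25.4 CPM in treated tau, 32.7 and 20.2 CPM in tau, and 33.5 and 22.7 CPM in control. Within each group of Hist1h1c 1 library was well above the other, and the 3 groups overlapped. The H2B gene Hist1h2bc had 14.3 and 16.6 CPM in treated tau, 16.8 and 17.7 CPM in tau, and 15.5 and 13.2 CPM in control, with tau above both other groups.

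The most abundant H2A gene, Hist3h2a, had 8.42 and 10.4 CPM in treated tau, 10.1 and 11.1 CPM in tau, and 12.8 and 8.74 CPM in control. It overlaps Trim17 on the same strand, and its groups overlapped. The most abundant H3 gene, Hist1h3e, had 10.1 and 11.2 CPM in treated tau, 9.89 and 8.42 CPM in tau, and 9.31 and 9.41 CPM in control. Hist1h3e was highest in the treated tau libraries, opposite to the H4 genes Hist1h4c and Hist1h4f. Its log2 fold changes were 0.20 ± 0.16 against tau and 0.18 ± 0.15 against control (SE), with edgeR adjusted p of 0.728 and 0.606. However, 73.4% of its 50-base words are in another gene, most often Hist1h3f. Hist1h3f was at -0.14 ± 0.19 against tau and -0.12 ± 0.18 against control (SE).

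Per length the order changed. Annotated exons of these genes run from short models that end near the stem-loop to models of several kilobases. Per kilobase of exon, Hist1h4h stood first at 78.9 CPM (69.6 to 84.5 over the 6 libraries) and Hist1h4d second at 58.9 CPM (47.9 to 65.8). Their libraries did not overlap, but this order rests on annotated exons of 470 and 1138 bases. Per coding kilobase, with 312 coding bases in each, the order was reversed: 215 CPM for Hist1h4d and 119 for Hist1h4h. Hist1h4k at 40.5, Hist1h4f at 40.2 and Hist1h4c at 37.7 CPM per kilobase followed, and their library ranges overlapped. Hist3h2ba (24.4), Hist1h4a (23.9), Hist1h4i (22.1) and Hist1h4n (21.4 CPM per kilobase) came next, with overlapping ranges, before Hist1h1e at 19.2. Of these 10 genes all but Hist3h2ba and Hist1h1e encode H4.

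Levels also went with how far the annotated model runs past the stem-loop, as a description only. The 22 coding genes whose model runs at least 150 bases past it had a median of 22.5 CPM per coding kilobase and 4.38 per exon kilobase. The 22 whose model ends within 75 bases of it had a median of 1.71 per coding kilobase and 1.39 per exon kilobase, and the 23 coding genes without the letters had 2.59 and 1.97. These models hold different lengths of sequence that a read can be counted to, and the count tables do not separate reads before the stem-loop from reads after it. The value per coding kilobase divides counts over the whole exon by coding length alone. The share of 50-base words in another gene differed too. It ran from 38.6% (Hist2h2ac) to 100% (Hist2h2aa2) in the shorter models and from 0% (Hist1h1t) to 100% (Hist2h3c1) in the longer ones. Its part in the levels was not tested. Among the abundant genes, the annotated transcript ran 770 bases past the stem-loop in Hist1h4d, 454 in Hist1h4c, 1153 in Hist1h1e and 840 in Hist1h1c, but 46 in Hist1h4h and 33 in Hist1h4f.

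**Figure D2:**
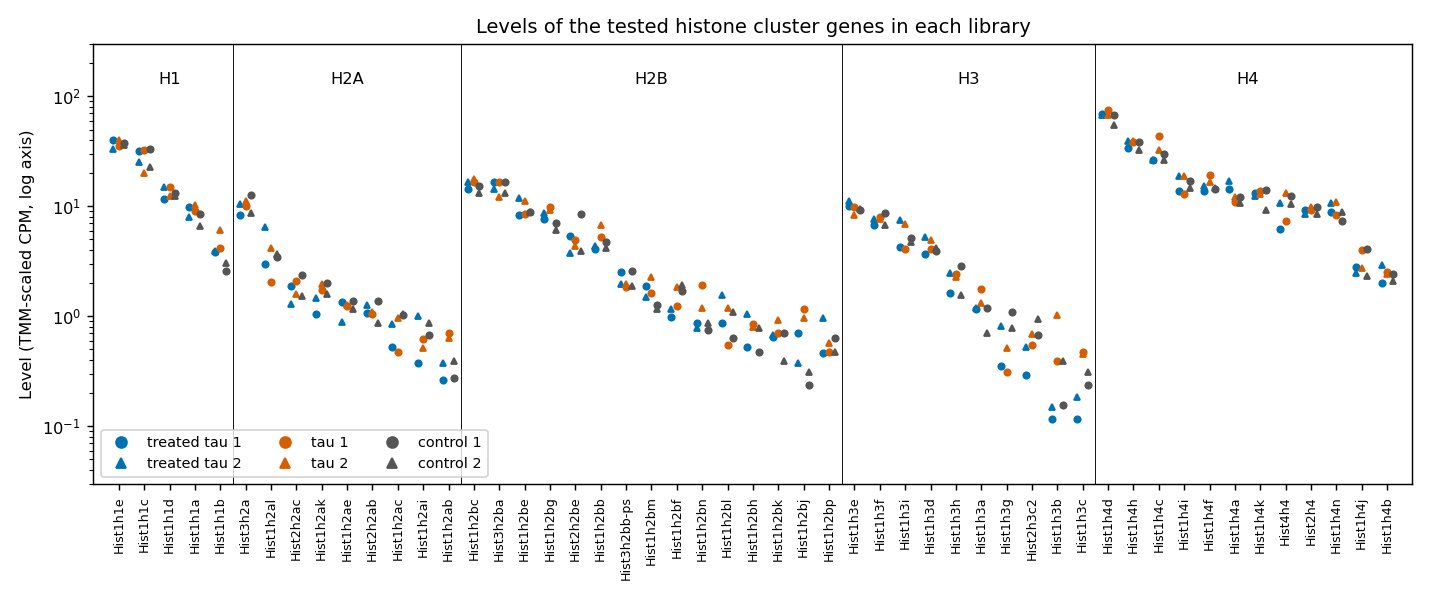
Level of each of the 51 tested histone cluster genes in each library, in TMM-scaled CPM on a log axis, grouped by class and ordered within a class by mean level; colours are treated tau, tau and control and symbols are the 2 libraries. Hist1h4d is at the top, between 54.5 and 74.9 CPM, and 18 of the 51 genes differ at least 2-fold between their highest and lowest library, 1 of them (Hist4h4) among the genes that average 10 CPM or more.

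The filter on low counts asked for 0.394 CPM before TMM scaling, which is 10 counts in a library of median size, in at least 2 libraries, and left 51 of the 70 genes to be tested: 5 H1, 9 H2A, 15 H2B, 10 H3 and 12 H4 genes. Of the 51, Hist1h3c passed through the libraries of 1 group alone, the tau group. The other 19 were mostly H2A genes (11). 8 of them were at 0 counts in every library: Hist1h2aa, Hist1h2aj, Hist1h2ba, Hist2h2aa1, Hist2h2aa2, Hist2h2bb, Hist2h3b and Hist2h3c1. Hist1h2aa and Hist1h2ba are known as testis histones, whereas Hist2h2aa1 and Hist2h2aa2 have identical coding sequences, and 7 of the 8 overlap another annotated gene on either strand. Of all 70 genes, 7 overlap another gene on the same strand and 23 on the opposite strand. Every H2A gene is among the 23, and the others are Hist1h4b, Hist2h2bb and Hist2h3b. Whether overlap bears on the counts of 0 or on the level of the H2A class was not tested. A count of 0 allows up to 3 counts, or 0.0877 to 0.172 CPM depending on the library, for counting error only. Of the 11 others, 10 had at most 9 counts in any library: Hist1h2ad, Hist1h2an, Hist1h2af, Hist1h2ag, Hist1h2ah, Hist1h1t (a testis linker histone, with 2 counts in treated tau 1 alone), Hist1h2br, Hist1h2ap, Hist1h2ao and Hist1h2bq.

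Hist1h4m, the remaining untested gene, was singled out after its values were seen. It had 12 and 10 counts in treated tau, 90 and 2 in tau, and 2 and 0 in control, so tau 1 alone was high. Hist1h4n, whose coding sequence is identical, showed no such library, at 8.97 and 10.6 CPM in treated tau, 8.37 and 10.9 CPM in tau, and 7.42 and 8.86 CPM in control.

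WDR5 is a core subunit of the complexes that trimethylate lysine 4 of histone H3, and treated tau against tau asks what its small-molecule ligand did in PS19 cortex. No histone cluster gene was called between these groups by edgeR's quasi-likelihood test with Benjamini-Hochberg adjustment over all 20694 genes tested (adjusted p under 0.05), while 779 genes, or 3.76% of all tested, were called. Of those 779 symbols, 616 are not listed under that symbol as protein coding in GENCODE M21. A fit on protein-coding symbols and the histone cluster genes alone called 45 of 14741 genes (0.305%), with 0 of the 51 histone genes among them. limma-voom also called 0 of the 51 genes (3.38% of all genes), and DESeq2 called 1, Hist1h4c, as lower in treated tau (3.93% of all genes). At an unadjusted p under 0.05, 7 histone genes passed, 1 higher and 6 lower in treated tau, against 12% of all genes. 18 of the 51 genes were lower in both treated tau libraries than in both tau libraries, against 20.1% of all genes, and 3 were higher, against 21.2% of all genes. As shares of the 51, these were 35.3% and 5.88%. Hist1h3c, which passed the filter only through the tau libraries, is among the 7 and among the 18. The median log2 fold change was -0.11 over the 51 genes and -0.01 over all genes, with 35 values negative and 16 positive.

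Hist1h4c had the smallest p of the 51 genes in treated tau against tau. Its log2 fold change was -0.54 ± 0.14 (SE, 95% interval -0.86 to -0.22), with an edgeR adjusted p of 0.0872. Over the alternative settings the value lay between -0.72 and -0.30 and the adjusted p between 0.0288 (without tau 2) and 0.56; DESeq2 gave 0.0363. The spread of this gene was 0.259 CPM in treated tau and 7.70 CPM in tau (SD, n = 2 each), and the lowest adjusted p was reached with tau 1, the higher tau library, as the only tau library.

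The other 4 genes with the smallest p were of several classes. Hist1h3b, an H3 gene, had 0.117 and 0.149 CPM in treated tau, against 0.391 and 1.03 CPM in tau, at a log2 fold change of -2.28 ± 0.75 and an edgeR adjusted p of 0.196. Hist1h3c, also H3, had 0.117 and 0.186 CPM in treated tau, against 0.469 and 0.458 CPM in tau, at -1.62 ± 0.62 and an edgeR adjusted p of 0.298. Both are near the floor of 3 counts in the treated tau libraries, so their fold changes rest on few reads. Hist1h3c also passed the filter through the tau libraries alone, the group where it was highest, so its test against tau is not independent of the filter. Hist1h2bn, an H2B gene, had 0.877 and 0.783 CPM in treated tau, against 1.92 and 1.20 CPM in tau, at -0.95 ± 0.38 and an edgeR adjusted p of 0.338.

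Hist1h4a differed in direction. It had 14.3 and 16.9 CPM in treated tau, 11.1 and 12.2 CPM in tau, and 12.3 and 10.7 CPM in control, so both treated tau libraries were above the other 4. The log2 fold change was 0.42 ± 0.15 against tau (edgeR adjusted p = 0.261) and 0.44 ± 0.15 against control (edgeR adjusted p = 0.175), and these 2 comparisons share the treated tau libraries. The H4 gene Hist1h4f and the H2B gene Hist1h2bb also passed an unadjusted p of 0.05, both lower in treated tau than in tau: at -0.32 ± 0.13 for Hist1h4f and -0.48 ± 0.21 for Hist1h2bb (SE).

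Intervals of the difference were narrower in the abundant genes than in many rarer ones. For the abundant genes the 95% interval of treated tau against tau ran from -0.31 to 0.19 in Hist1h4d, from -0.31 to 0.23 in Hist1h1e, from -0.37 to 0.15 in Hist1h4h and from -0.43 to 0.63 in Hist1h1c (log2 scale). It lay within 1 log2 unit of 0 in 30 of the 51 genes, in 28 of the 31 tested genes that averaged at least 2 CPM and in 11 of the 12 H4 genes. The 5 tested genes without near-copies (Hist1h1a, Hist1h1b, Hist1h1d, Hist2h2be and Hist2h4) had log2 fold changes between -0.38 and -0.0037, and none was called.

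**Figure D3:**
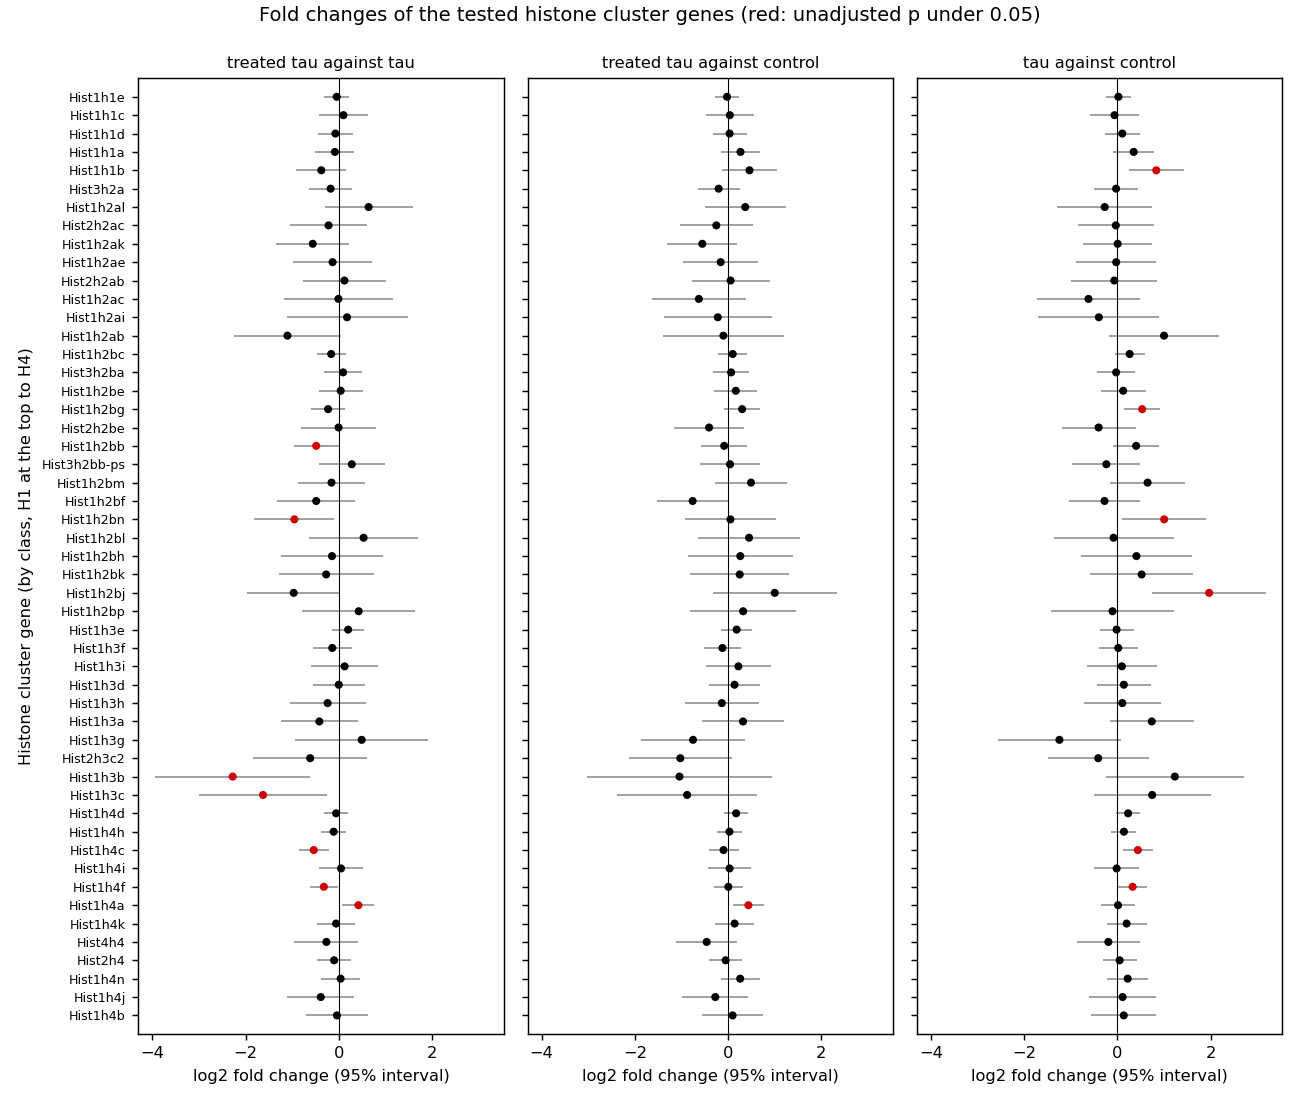
Log2 fold change of each of the 51 tested histone cluster genes (rows, by class from H1 to H4) with its 95% interval, for treated tau against tau, treated tau against control and tau against control; red marks an unadjusted p under 0.05. Red points number 7, 1 and 6 in the 3 panels, and none has an adjusted p under 0.05 by edgeR.

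Between treated tau and control, again no histone cluster gene was called by edgeR's quasi-likelihood test with Benjamini-Hochberg adjustment, against 873 genes or 4.22% of all tested. Of those 873 symbols, 734 are likewise not listed as protein coding, and the fit on protein-coding symbols and the histone cluster genes called 40 of 14741 (0.271%) and 0 of the 51 histone genes. DESeq2 (4.3% of all genes) and limma-voom (3.82%) also called 0 of the 51. 1 gene, Hist1h4a, passed an unadjusted p of 0.05, against 16.3% of all genes. 8 genes were higher in both treated tau libraries than in both control libraries, against 23% of all genes, and 6 were lower, against 23.3%. The median log2 fold change over the 51 genes was 0.04, with 30 positive and 21 negative values, and -0.01 over all genes.

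After Hist1h4a, the smallest p values of treated tau against control belonged to 2 genes that were lower and 2 that were higher. Hist1h2bf had 0.994 and 1.16 CPM in treated tau, against 1.70 and 1.92 CPM in control, at a log2 fold change of -0.76 and an edgeR adjusted p of 0.309. The H3 gene Hist2h3c2 had 0.292 and 0.522 CPM in treated tau, against 0.671 and 0.941 CPM in control, at -1.03 and an edgeR adjusted p of 0.346. The higher ones were Hist1h2bg, at 0.30 ± 0.17, and Hist1h1b, at 0.46 ± 0.26 (SE), with edgeR adjusted p of 0.430 and 0.434. In all 4 genes the libraries of the 2 groups did not overlap.

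Tau against control compares PS19(P301S) mice with C57BL/6 x C3H mice, both given vehicle. Prnp in the library labelled control 1 was within the range of the transgenic libraries. Both tau libraries showed the female pattern, whereas control 1 showed the male and control 2 the female pattern. The part of these differences in this comparison was not tested. edgeR's quasi-likelihood test with Benjamini-Hochberg adjustment called 0 of the 51 histone genes and 0 of all 20694 genes (0%), limma-voom called 0 of both (0%), and DESeq2 called 50 of the 12670 genes it gave an adjusted p (0.395%) and 0 of the 25 histone genes among them. At an unadjusted p under 0.05, 6 histone genes passed, all higher in tau, against 9.95% of all genes. 16 of the 51 genes were higher in both tau libraries than in both control libraries, against 20.3% of all genes, and 3 were lower, against 21.3%. As shares of the 51, these were 31.4% and 5.88%. Hist1h3c, which passed the filter only through the tau libraries, is among the 16. The median log2 fold change was 0.10 over the 51 genes and -0.003 over all genes, with 32 positive and 19 negative values.

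Hist1h2bj, an H2B gene, had 0.701 and 0.373 CPM in treated tau, 1.17 and 0.974 CPM in tau, and 0.237 and 0.314 CPM in control. The tau libraries were highest and the control libraries lowest, with a log2 fold change of 1.97 ± 0.54 for tau against control and an edgeR adjusted p of 0.441. Hist1h1b, a linker histone with no near-copy, had 3.83 and 3.91 CPM in treated tau, 4.22 and 6.08 CPM in tau, and 2.57 and 3.06 CPM in control. It was highest in tau, then in treated tau, then in control, with no overlap, and tau against control gave 0.83 ± 0.26 with an edgeR adjusted p of 0.441.

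Hist1h2bg had 7.69 and 8.72 CPM in treated tau, 9.86 and 9.23 CPM in tau, and 7.10 and 6.15 CPM in control, likewise with tau highest, then treated tau, then control. Tau against control gave 0.53 ± 0.17 for Hist1h2bg, 0.44 ± 0.14 for Hist1h4c and 1.00 ± 0.40 for Hist1h2bn (log2, SE), with edgeR adjusted p of 0.441 for Hist1h2bg and Hist1h4c and 0.469 for Hist1h2bn. Hist1h4c and Hist1h2bn were among the 5 genes with the smallest p both here and in treated tau against tau. The 2 comparisons share the tau libraries, so the same tau values enter both. Without the library labelled control 1, the log2 fold changes of tau against control were 1.78 for Hist1h2bj, 0.71 for Hist1h1b, 0.64 for Hist1h2bg, 0.54 for Hist1h4c and 0.91 for Hist1h2bn, with the lone control library assumed to vary like the other groups.

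**Figure D4:**
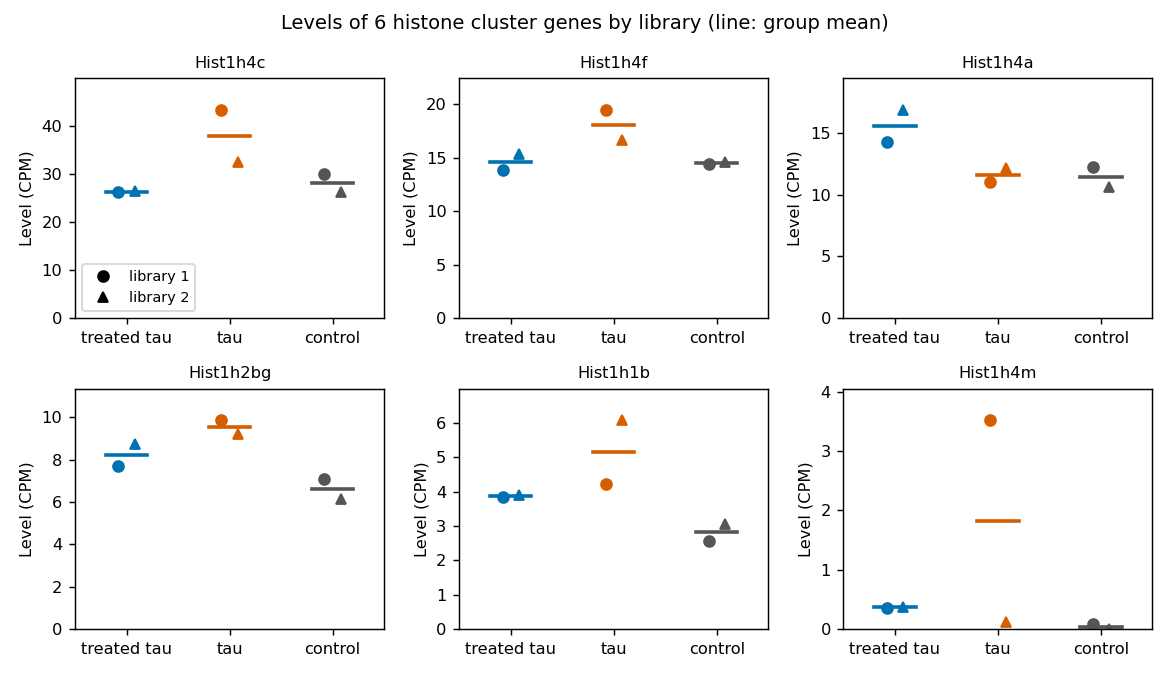
Level in TMM-scaled CPM (vertical axis, starting at 0, its own range per panel) of Hist1h4c, Hist1h4f, Hist1h4a, Hist1h2bg, Hist1h1b and Hist1h4m in treated tau, tau and control; points are libraries and lines are group means. Hist1h4a is highest in treated tau, the other 5 have their highest library in tau, and Hist1h4m is high in tau 1 alone, at 3.52 CPM.

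Genes that make and degrade histone mRNA were read from a list of 31, of which 29 were in the tables and tested. None was called by edgeR's quasi-likelihood test in any of the 3 comparisons, against 3.76%, 4.22% and 0% of all genes in treated tau against tau, treated tau against control and tau against control. In that order, 6, 3 and 4 of the 29 passed an unadjusted p of 0.05, against 12%, 16.3% and 9.95% of all genes. Their median log2 fold changes were -0.07, 0.06 and 0.12, beside -0.01, -0.01 and -0.003 over all genes. Slbp, which encodes the protein that binds the stem-loop, had 18.3 and 19.1 CPM in treated tau, 23.6 and 23.8 CPM in tau, and 20.2 and 19.8 CPM in control. Slbp was highest in tau and lowest in treated tau with no overlap, at a log2 fold change of -0.34 ± 0.11 for treated tau against tau and an edgeR adjusted p of 0.191.

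Sympk, a scaffold of the 3′ cleavage machinery, had 123 and 113 CPM in treated tau, against 98.5 and 93.8 CPM in tau (log2 fold change 0.29 ± 0.08, edgeR adjusted p = 0.115). Snrpe, a protein of the Sm ring, had 8.51 and 7.76 CPM in treated tau, against 13.4 and 10.49 CPM in tau (-0.57 ± 0.18, edgeR adjusted p = 0.178). Against control, the smallest p in treated tau belonged to Lsm11, a protein of the U7 particle that guides the cleavage, at 0.40 ± 0.14, and the decapping enzyme Dcp2, at 0.20 ± 0.08, with edgeR adjusted p of 0.189 and 0.226. Between tau and control they belonged to Snrpd3, at 0.30 ± 0.10, and Upf1, a helicase of RNA decay, at -0.28 ± 0.12, with edgeR adjusted p of 0.450 and 0.479.

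Replacement histones are typically, though not in every case, made outside S phase from polyadenylated transcripts. Of the 16 listed, 13 were tested and 1, H2afy3, was called, in both comparisons of treated tau. There, 3.76% (against tau) and 4.22% (against control) of all genes were called. GENCODE M21 lists H2afy3 as a processed pseudogene, and whether its reads stem from related genes was not tested. It was not in the fit on protein-coding symbols. H2afy3 had 1.84 and 2.57 CPM in treated tau, 0.235 and 0.573 CPM in tau, and 0.0789 and 0.314 CPM in control. It rose in treated tau by edgeR's quasi-likelihood test, with log2 fold changes of 2.53 ± 0.51 against tau (adjusted p = 0.0237) and 3.43 ± 0.56 against control (adjusted p = 0.00639). The call against tau was lost with limma-voom (adjusted p = 0.0527) and without either treated tau or either tau library (edgeR adjusted p 0.0567 to 0.302), and the call against control without the library labelled control 1 (edgeR adjusted p = 0.0555). H3f3b, which encodes a replacement H3, had 112 and 100.4 CPM in treated tau, 117 and 109 CPM in tau, and 123 and 102 CPM in control, at a log2 fold change of -0.09 ± 0.11 for treated tau against tau. None of the 13 was called between tau and control, and none passed an unadjusted p of 0.05 there.

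All 24 histone chaperones listed were tested, 1 of which (Mcm2) also stands in the S phase list. Npm1, which encodes nucleophosmin, had 62.4 and 59.1 CPM in treated tau, 85.7 and 87.5 CPM in tau, and 72.1 and 71.6 CPM in control. It fell in treated tau against tau, at a log2 fold change of -0.51 ± 0.08 (edgeR's quasi-likelihood test, adjusted p = 0.00705), and like the histone genes it has many copies in the genome, so reads may be split among them. That call was lost without treated tau 2, tau 1 or tau 2 (edgeR adjusted p 0.0544 to 0.086). Nap1l2, a nucleosome assembly protein of neurons, had 157 and 150.2 CPM in treated tau, 159.6 and 141 CPM in tau, and 116 and 112 CPM in control. It rose in treated tau against control at 0.42 ± 0.09 (edgeR's quasi-likelihood test, adjusted p = 0.021), and tau against control gave 0.40 ± 0.09 with an adjusted p of 0.441. The call for Nap1l2 was lost with protein-coding symbols alone (edgeR adjusted p = 0.158) and without either treated tau or either control library (edgeR adjusted p 0.0584 to 0.165). No other chaperone was called in any comparison, so 1 of 24 was called in each comparison of treated tau, beside 3.76% and 4.22% of all genes. Their median log2 fold changes were -0.06, -0.02 and 0.04 in treated tau against tau, treated tau against control and tau against control.

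The 30 genes of S phase and mitosis, when the histone cluster genes are mainly transcribed, gave 28 tested and 0 called by edgeR's quasi-likelihood test in the 3 comparisons, with 4, 2 and 4 at an unadjusted p under 0.05, against 12%, 16.3% and 9.95% of all genes. Their median log2 fold change was -0.22 in treated tau against tau, with 21 of 28 negative, -0.14 in treated tau against control, with 22 negative, and 0.01 in tau against control, with 14 negative. Over all genes 51.3%, 51.2% and 50.5% of values were negative. Mki67, a marker of cycling cells, had 2.22 and 2.87 CPM in treated tau, 3.79 and 5.10 CPM in tau, and 2.68 and 2.74 CPM in control. Top2a, a topoisomerase of dividing cells, had 1.08 and 1.01 CPM in treated tau, 1.88 and 3.897 CPM in tau, and 0.789 and 1.49 CPM in control. Both were highest in tau, with edgeR adjusted p of 0.207 and 0.183 in treated tau against tau. The summed level of the 30 genes was 152 and 140.1 CPM in treated tau, 164 and 166 CPM in tau, and 168 and 149.6 CPM in control, and its part in the histone values was not tested.

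Between treated tau and control the smallest p of the S phase list belonged to Pola1, the catalytic subunit of DNA polymerase alpha, at -0.47 ± 0.14, and Cdc6, a replication licensing factor, at -1.34 ± 0.53 (log2, SE), with edgeR adjusted p of 0.123 and 0.241. Between tau and control it belonged to Uhrf1, which binds hemimethylated DNA in S phase, at 1.60 ± 0.53, and to Top2a, at 1.25 ± 0.45, with edgeR adjusted p of 0.441 and 0.450.

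**Figure D5:**
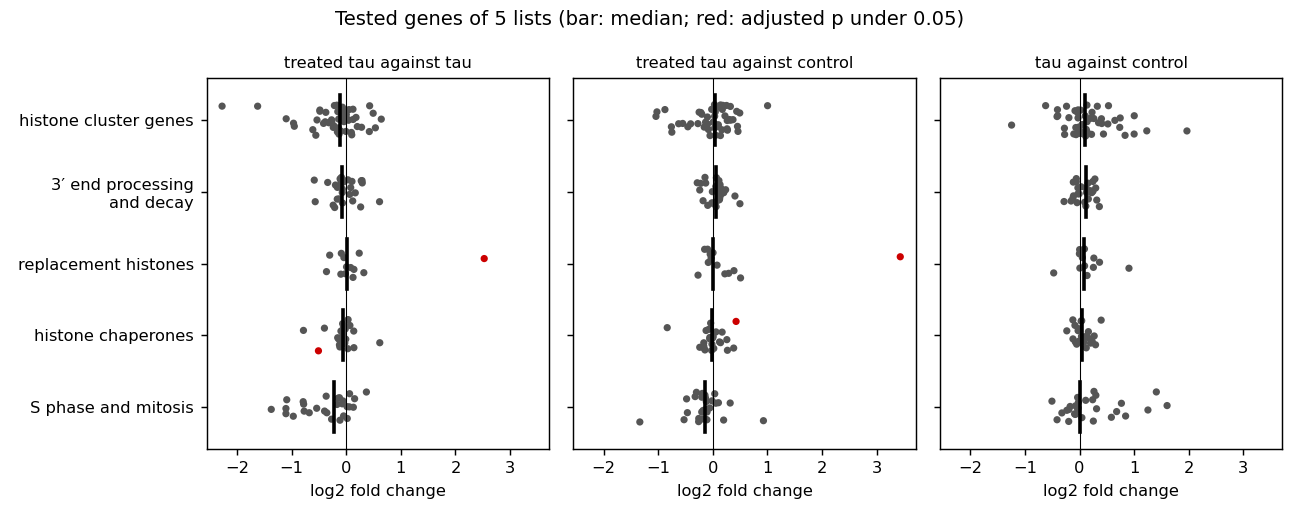
Log2 fold change of the tested genes of the histone clusters and of the 4 related lists in treated tau against tau, treated tau against control and tau against control; each point is a gene, bars are medians and red marks an edgeR adjusted p under 0.05. The histone cluster medians are -0.11, 0.04 and 0.10, and the red points are H2afy3 and Npm1 in the first panel and H2afy3 and Nap1l2 in the second.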

How the data were processed

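RNA from 6 libraries was measured; per the labels' protocols, libraries were strand-specific, from total RNA without ribosomal RNA, and Cutadapt (trimming) and TopHat2 (alignment) were run on the reads. The submitters' processing notes also name featureCounts, SAMtools, edgeR and mm10; no version, strand setting or rule for multi-mapped reads is given in the sources used here. Deposited were raw read counts, in whole numbers per symbol, with 54429 symbols in the control and tau tables and 54134 in the treated tau tables.

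From these counts, symbols in all tables (53640) passed through filterByExpr at a minimum count of 10 (0.394 CPM in at least 2 libraries) and TMM scaling, and 1 model without covariates was fitted over the 6 libraries in edgeR 4.0.16 (quasi-likelihood test, two-sided, 3 residual degrees of freedom, R 4.3.3), with p adjusted by Benjamini-Hochberg over 20694 genes. DESeq2 1.42.0, limma-voom (limma 3.58.1), other scalings, no filter, protein-coding genes alone, a replicate block and leaving out each library were the alternatives. Floors cover counting error only, since reads carry no molecular identifiers. Positions, models and 50-base words came from GENCODE M21. The fit was tested on simulated data with large changes in well-counted genes and 1 fixed spread, which does not cover small changes or genes of few counts. Genes chosen to be named are the 5 of smallest p per comparison, the 8 most abundant and the top gene of each class. Per related list, called genes or the 2 of smallest p are named, with Slbp always. Some are given with the levels of the compared groups alone or with fold changes alone. H3f3b and further genes with an unadjusted p under 0.05 were added after their values were seen. The members and lists were chosen with earlier results of these data known.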

Additional observations from a re-analysis of the deposited data

How the results depend on the processing

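No histone cluster gene was called by edgeR under any scaling, filter or gene set tried, nor without any single library, except Hist1h4c in treated tau against tau: the count there was 1 with DESeq2 and 0 to 1 when a library was left out (1 without tau 2, 0 otherwise). It was 0 throughout in the comparisons with control, which says nothing about stability in tau against control, where 0 of all genes were called too. A library left alone in its group was assumed to vary like the other groups. Counts over all genes moved more. With protein-coding symbols alone, 45 genes were called in treated tau against tau and 40 in treated tau against control, against 779 and 873. Leaving out a library gave 365 (without tau 1) to 848 in treated tau against tau (432, 424 and 497 without treated tau 1, treated tau 2 and tau 2), 500 (without treated tau 2) to 816 in treated tau against control (515 without treated tau 1), and 0 to 77 in tau against control (5 without tau 2, 77 without control 2). DESeq2 called 50 in tau against control. The causes were not tested. The summed histone ratio ranged from -0.13 to -0.05 in treated tau against tau, from -0.06 to 0.18 in treated tau against control and from 0.03 to 0.27 in tau against control when a library was left out.

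Same-numbered libraries did not deviate together (correlations 0.07, -0.01 and 0.01 across genes), so the numbers were not taken to pair libraries. With the replicate block, 0 histone genes were called in each comparison and 708, 796 and 0 genes in all. Of 516 values of named histone genes under alternatives, 33 changed sign, all of them values that were not called, and 2 passed the threshold, both of Hist1h4c. With 2 libraries a group, reads shared among near-copies and few counts for the rarer genes, a gene that was not called is not shown to be alike between groups.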
